A study of Salmo salar with 12 samples.

Results

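The miRNAs described here are the locus-numbered arms of duplicated Atlantic salmon miRNA genes, the mature sequences whose name carries a locus number before the arm, as in ssa-miR-128-1-5p. They were chosen by name alone, and 70 of the 361 miRNAs in the table met the rule. A further 2 locus-numbered names belong to an miRNA that the rule leaves out, and they are not reported here. The 70 arms come from 36 miRNAs, each of which carries locus numbers on only 1 of its arms, the 5p arm for 37 names and the 3p arm for 33. Small RNA was sequenced from adherent intestinal cells (AIC), taken from the distal intestine, and from adherent head kidney cells (AKC), taken from the head kidney, the main blood-forming and immune organ of bony fish. Each group had 6 libraries, and the study compared the groups to see how far AIC resemble the macrophage-like AKC.

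All cells came from seawater-reared post smolts of Salmo salar that carried no experimental genotype and received no experimental treatment. Leukocytes were isolated from each organ, left to attach to a dish for 2 days at 12°C in Leibovitz medium, and detached with EDTA. AIC and AKC shared the culture and detachment steps. The paper refers to earlier work for the isolation from each organ, so it is not known here whether that step was the same. The libraries hold the whole adherent pool and not sorted macrophages, and in such bulk samples fewer cells of a type and less RNA per cell cannot be told apart. The study took both organs from 6 fish, and the labels number the samples 1 to 6 in each group without saying which fish gave which sample, so same-numbered samples were not treated as pairs. The p-values measure the spread between these samples.

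A miRNA is cut from a hairpin, first by Drosha in the nucleus and then by Dicer in the cytoplasm, which leaves a short duplex of a 5p and a 3p strand. Usually the strand that is loaded into an Argonaute protein is kept and guides the repression of mRNAs, while the opposite strand is degraded. Salmonids passed through an additional whole-genome duplication, so many of their miRNA genes exist as paralogous hairpins. In miRBase, a mature strand that is identical in several hairpins can have a single unnumbered name, whereas strands that differ between the hairpins can keep the number of their locus. A numbered arm can therefore be assigned to its locus, whereas the counts of the unnumbered opposite arm can pool the loci. For 25 of the miRNAs here, an unnumbered name of the same arm is also in the table. There, as for miR-23a, miR-25 and miR-30a, the numbered names are only part of that arm. Their ratios to the opposite arm thus set a part against a whole. Mature sequences and hairpin positions were not used here, and neighbouring loci with near-identical arms can share reads, so the division of counts among loci is uncertain to that extent.

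Total counts ranged from 2253242 to 11804738 per AIC library, with a median of 4842496, and from 5791813 to 19586480 per AKC library, with a median of 11374165.5. The intestinal epithelial markers (miR-192, miR-194, miR-200, miR-141 and miR-429, 12 of 15 names detected) summed to 8068 to 12937 normalised counts (CPM, counts per 1000000 of a scaled library) in AIC and 0.327 to 72.4 in AKC, and the enteroendocrine markers (miR-375 and miR-7, 3 of 5 detected) to 237703 to 465210 and 58.1 to 189. The leukocyte and macrophage markers (miR-142, miR-223, miR-150, miR-155 and miR-146, 7 of 8 detected) summed to 2676 to 30251 CPM in AIC and 9052 to 24252 in AKC. Stromal and muscle markers (miR-143, miR-145, miR-199, miR-214, miR-133 and miR-1, 5 of 14 detected) summed to 0 to 34.1 CPM in AIC, with a median of 0. In AKC they summed to 5.20 to 55.0 CPM, with a median of 38.9. The erythroid markers (miR-451 and miR-144, 0 of 2) and the neural markers (miR-9 and miR-124, 0 of 8) had no count in any library. The lists also hold the numbered arms of miR-200a, miR-375, miR-133a, miR-1 and miR-9a, and so are not independent of the arms described here. In the neural list, 5 of the 8 names are numbered 3p arms of miR-9a. The AIC pools thus carried epithelial miRNAs that AKC nearly lacked.

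Which loci yielded a numbered arm was examined first. At least 1 count was present for 20 of the 70 numbered arms (28.6%), against 160 of the other 291 miRNAs (55.0%). Among the unnumbered names of the same arms of these miRNAs, 8 of 25 had a count, so low detection was not particular to numbered names. The remaining 50 had no count in any library, which allows up to 3 counts per library each, counting error alone considered. Detected were 12 of the 5p arms and 8 of the 3p arms, from 14 of the 36 miRNAs. Of the 20, 8 were found in both groups, 6 in AIC libraries only and 6 in AKC libraries only, and 9 were seen in no more than 1 library. These group lists rest on few counts, and the difference in depth between the groups was not separated from them.

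Numbered arms gave few of the counts. Their 51070 counts, 7345 in AIC and 43725 in AKC, made up 0.0499% of all counts, or 0.0270% ± 0.0333 per library in AIC and 0.0650% ± 0.0118 per library in AKC (SD, n = 6). miR-128, a miRNA abundant in neurons and in blood cells, gave 29825 of them (58.4%), all from its loci 1, 2 and 3. The 9 arms with at least 10 counts in at least 3 libraries, from miR-128, miR-23a, miR-24a, miR-25, miR-30a and miR-200a, together gave 48584 (95.1%). Of the 840 values of all numbered arms, 757 were 0, 16 lay from 1 to 10, 4 from 11 to 50 and 63 above 50. Of the values above 0, 19.3% lay from 1 to 10 and 4.82% from 11 to 50, against 12.9% and 1.87% for the other miRNAs.

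**Figure D1:**
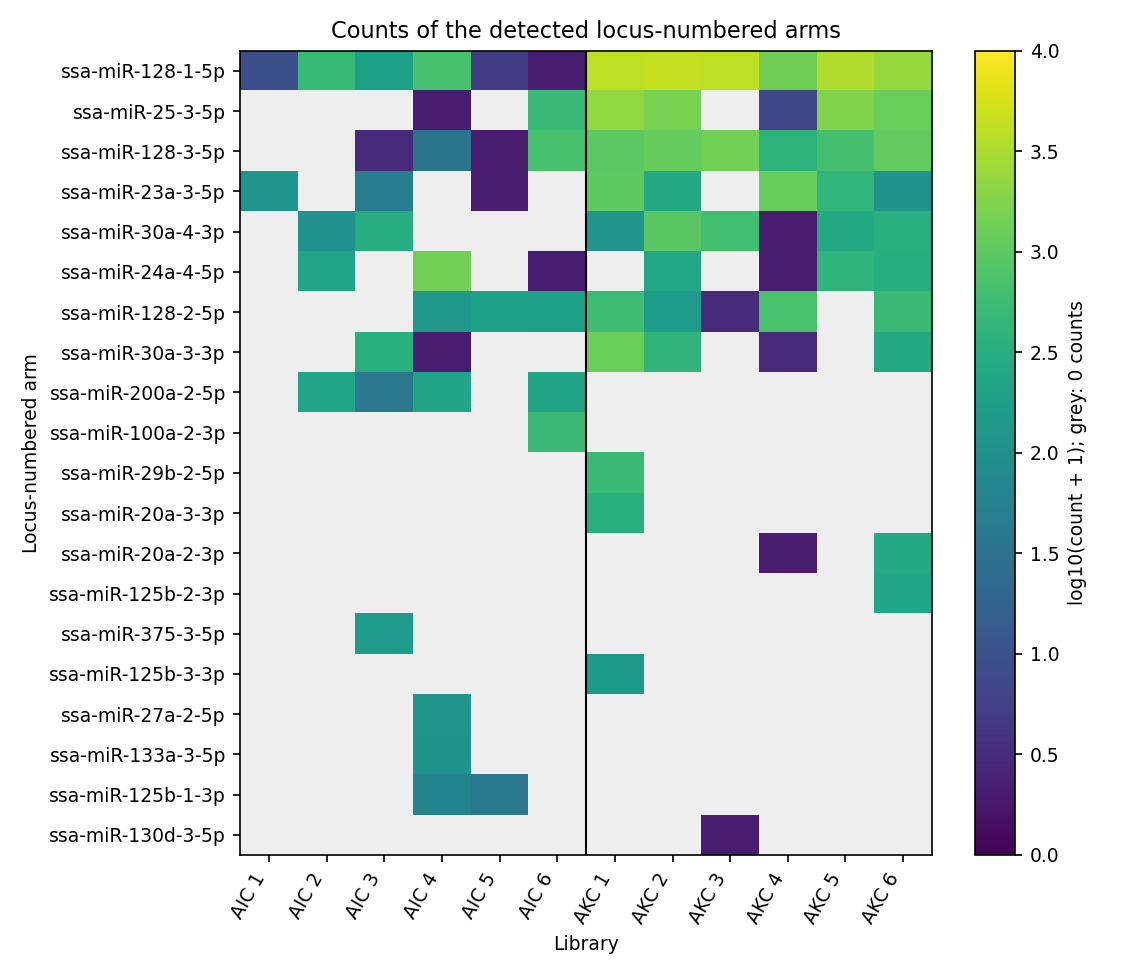
Counts of the 20 detected locus-numbered arms (vertical axis) in the 6 AIC and 6 AKC libraries (horizontal axis), with colour giving log10(count + 1) and grey a count of 0. ssa-miR-128-1-5p is the only arm with a count in all 12 libraries, and the lower 11 arms appear in 1 or 2 libraries each.

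The miR-128 gene family was the richest source. Its table entries comprise the shared 3p arm, ssa-miR-128-3p, and 5p arms numbered 1 to 4. Loci 1, 2 and 3 yielded a 5p arm, whereas ssa-miR-128-4-5p had no count in any library. ssa-miR-128-1-5p had 8, 475, 190, 689, 4 and 1 counts in AIC 1 to AIC 6, and 4118, 4243, 4162, 1349, 3320 and 2390 in AKC 1 to AKC 6. Every AKC library held more of it than every AIC library, and 3 AIC libraries held fewer than 10 counts.

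ssa-miR-128-2-5p was patchier. In AIC its counts ran from 0 to 191 with a median of 71, all of them in AIC 4 to AIC 6, and in AKC 1 to AKC 6 it had 578, 162, 2, 702, 0 and 503 counts. The groups overlapped, and each contained libraries at 0. ssa-miR-128-3-5p had 0, 0, 2, 34, 1 and 686 counts in AIC 1 to AIC 6, and 983, 1153, 1389, 388, 670 and 1100 in AKC 1 to AKC 6. In raw counts only AIC 6 reached the AKC range, while the other 5 AIC libraries lay far under it. Scaled to library size, ssa-miR-128-3-5p in AIC 6 was at 312 CPM, above the highest AKC library at 105 CPM. The shared ssa-miR-128-3p was plentiful throughout, from 2442 to 9740 counts in AIC with a median of 5360.5, and from 5634 to 50562 in AKC with a median of 20048.5. Scaled to library size, its level was 1541 ± 384 CPM in AIC and 1325 ± 277 CPM in AKC (SD, n = 6), with overlapping libraries.

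**Figure D2:**
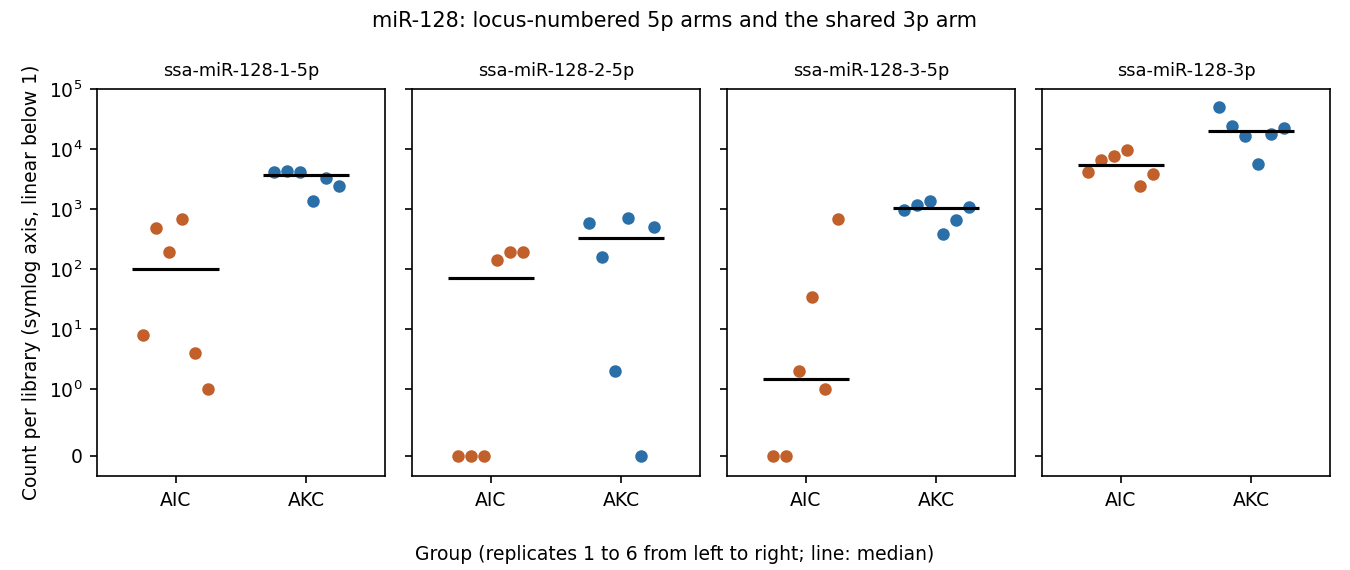
Counts per library (symmetric log axis, linear below 1) of the 3 detected miR-128 5p arms and of the shared 3p arm, with replicates 1 to 6 from left to right in each group and the median as a line. The AIC and AKC libraries separate fully for ssa-miR-128-1-5p alone, where AIC reaches 689 counts and AKC starts at 1349.

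When AIC and AKC were compared across all miRNAs with edgeR's quasi-likelihood test, 76 miRNAs passed the filter on low counts. Of these, 21 (27.6%) were called, that is, had an adjusted p (Benjamini-Hochberg) under 0.05 together with a log2 fold change of 1 or more in either direction. There were 14 (18.4%) higher and 7 (9.21%) lower in AIC. Only 5 of the 70 numbered arms passed the filter, and 0 of these were called by edgeR. At an unadjusted p below 0.05 there was 1, ssa-miR-128-1-5p, against 32 of all 76 (42.1%). DESeq2 called this arm and no other numbered arm, against 33 of all 76 (43.4%). Only 1 of the 5, again ssa-miR-128-1-5p, had AIC libraries wholly below the AKC libraries, against 8 of the 76 (10.5%). The median log2 fold change of the 5 was -0.96, and that of all 76 was 0.11. All 5 reached 10 counts in more AKC than AIC libraries, and several are loci of miR-128. Their median thus depends on the filter and is not read as a shift of the numbered arms.

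ssa-miR-128-1-5p had 41.1 ± 51.1 CPM in AIC and 218 ± 65.0 CPM in AKC (SD, n = 6), a log2 fold change of -2.40 (SE 1.10, 95% interval -4.75 to -0.056) with an edgeR adjusted p of 0.111. The call depended on the setting, since DESeq2 gave -2.82 (adjusted p = 0.00788) and edgeR scaled by total counts -3.40 (adjusted p = 0.0221). For ssa-miR-128-2-5p the log2 fold change was 0.17 (SE 1.91, edgeR adjusted p = 0.957), and it was -0.27 with total counts. For ssa-miR-128-3-5p it was -0.27 (SE 1.65, edgeR adjusted p = 0.919). Without AIC 6, whose normalised count was 312 CPM, it was -5.81 (edgeR adjusted p = 0.00979). In the other 11 runs with a library left out it lay from -0.76 to -0.011 and was not called. AIC 6 went most against the difference, and the other AIC libraries held few counts of this arm. The run without AIC 6 is therefore not read as support. The opposite arm, ssa-miR-128-3p, had a log2 fold change of 0.22 (SE 0.30, edgeR adjusted p = 0.656), or -0.69 with total counts. Summed over the loci, the miR-128 5p arm had a log2 fold change of -1.32 (SE 0.80, edgeR adjusted p = 0.240).

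The loci of miR-128 did not contribute evenly. In AKC, locus 1 gave 70.4% ± 10.6 of the numbered 5p counts, locus 3 gave 20.6% ± 4.80 and locus 2 gave 9.08% ± 10.99 (SD, n = 6), and locus 1 was the largest in all 6 libraries. In the 5 AIC libraries with at least 10 such counts the shares were 56.2% ± 50.9, 16.7% ± 34.4 and 27.1% ± 40.5 for loci 1, 3 and 2. The AIC libraries disagreed with each other: locus 1 was the largest in AIC 2, AIC 3 and AIC 4, whereas locus 2 held 97.4% of the counts in AIC 5 (95% Wilson interval 94.2% to 98.9%) and locus 3 held 78.2% in AIC 6 (75.4% to 80.8%). Such intervals cover counting error only, because PCR copies are not independent molecules.

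The differences in locus share between the groups, 3 in all, did not pass an exact two-sided permutation test. The AIC minus AKC difference was -14.2 percentage points for locus 1 (exact p = 0.450, adjusted p = 0.682), 18.02 for locus 2 (exact p = 0.455, adjusted p = 0.682) and -3.81 for locus 3 (exact p = 0.948, adjusted p = 0.948). Without AIC 6, the difference for locus 3 was -19.2 points (permutation test, adjusted p = 0.0286). No other run with a library left out passed. AIC 6 went most against this difference, so the run without it is not read as support. At least 10 counts were reached by 3 loci in 4 AKC libraries and by 2 loci in the other 2. In AIC, 3 loci reached it in 1 library, 2 loci in 1 library, 1 locus in 3 libraries and none in AIC 1.

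**Figure D3:**
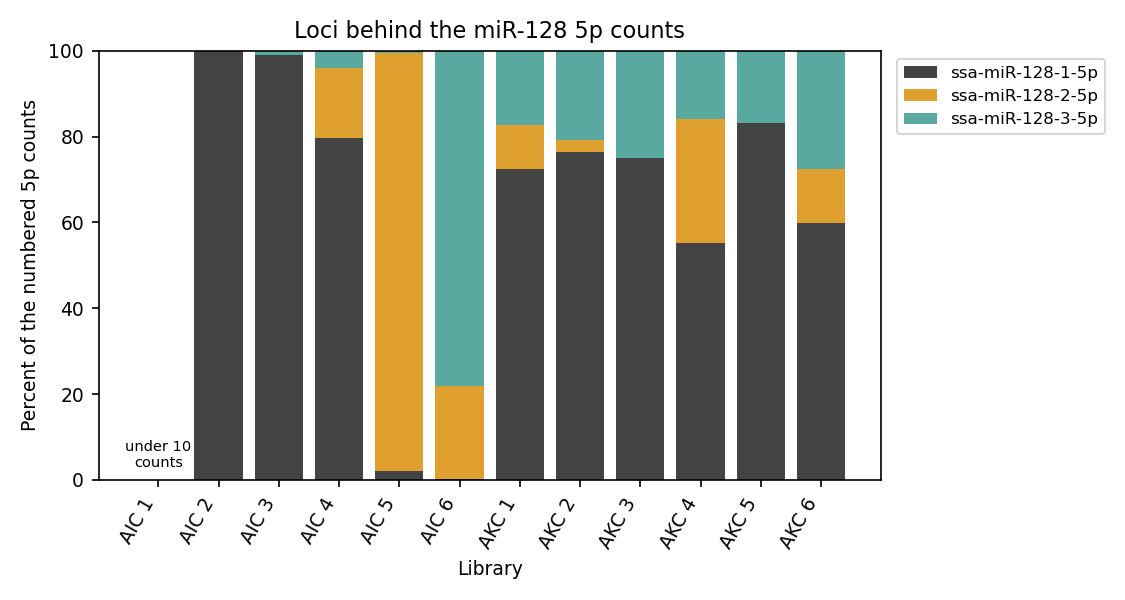
Percent of the numbered miR-128 5p counts that fell on locus 1, 2 or 3 (stacked bars) in each library, with AIC 1 left empty because it held under 10 counts. Locus 1 fills the largest part of all 6 AKC bars, while AIC 5 and AIC 6 are filled mainly by locus 2 and locus 3.

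How the numbered arms relate to the unnumbered opposite arm was examined as a ratio within each library, which needs no scaling between libraries. Where the numbered arms had no count, the 0.5 counts added to each arm make the log2 ratio follow the depth of the opposite arm. This did not occur for miR-128. For miR-128, the summed 5p arms numbered 1.94, 72.0, 24.7, 88.8, 80.3 and 229 per 1000 counts of ssa-miR-128-3p in AIC 1 to AIC 6, and 112, 228, 340, 433, 228 and 177 in AKC 1 to AKC 6. All but AIC 6 lay below every AKC library, and the 3p arm exceeded the 5p arms in all 12. The mean log2 ratio was -4.55 ± 2.37 in AIC and -2.11 ± 0.69 in AKC (SD, n = 6), a difference of -2.44, or 5.41-fold, with an exact two-sided permutation p of 0.0130 and an adjusted p of 0.0260 over the 2 miRNAs tested.

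The size of this difference rested partly on AIC 1, which held 8 counts of the 5p arms, and was -1.56 without it (permutation test, adjusted p = 0.0260). Leaving out AIC 2, AIC 3, AIC 5 or AKC 4 brought the adjusted p of the permutation test to 0.0519, with differences of -2.59, -2.28, -2.62 and -2.25. With same-numbered samples taken as pairs, an exact sign-flip test gave an adjusted p of 0.125. In the samples numbered 6 the difference ran the other way, with a log2 ratio of -2.12 in AIC 6 and -2.50 in AKC 6. The true pairing is not known, so that test cannot decide how paired samples differ. With locus 1 alone in place of the sum, the difference was -4.41 (permutation test, adjusted p = 0.00433). Locus 1 was taken for its total over all libraries, and 19582 of its 20949 counts lay in AKC. This setting is therefore not independent support. As shares of the 2 arms together, the 5p arms made up 7.26% ± 6.39 in AIC and 19.6% ± 7.20 in AKC (SD, n = 6). Epithelial markers and library totals differed between the groups as given above, and their part in the ratio was not tested.

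miR-23a, which is transcribed with miR-27a and miR-24 in vertebrates, has its locus numbers on the 5p arm and a shared 3p arm. Locus 3 gave counts and locus 4 none. ssa-miR-23a-3-5p had 122, 0, 46, 0, 1 and 0 counts in AIC 1 to AIC 6, and 1022, 267, 0, 1179, 427 and 115 in AKC 1 to AKC 6. Apart from AKC 3, all AKC libraries held it, whereas only AIC 1 and AIC 3 held more than 1 count. ssa-miR-23a-3p ranged from 347 to 5458 counts in AIC with a median of 1686.5, and from 505 to 6444 in AKC with a median of 2115.5, so that the groups overlapped.

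The 5p arm of miR-23a exceeded its 3p arm in AKC 4 alone, with 1179 against 1044 counts. In AIC 2, AIC 4 and AIC 6, and in AKC 3, the 5p arm was at 0, so that the log2 ratio there followed the depth of the 3p arm, for example -13.4 in AIC 4 and -10.5 in AIC 6. The mean log2 ratio was -8.74 ± 4.49 in AIC and -3.74 ± 3.50 in AKC (SD, n = 6), and the difference of -5.00 did not pass the exact permutation test (p = 0.0628, adjusted p = 0.0628). It did pass without AIC 1 (-6.45, permutation test, adjusted p = 0.0260) or without AKC 3 (-6.25, adjusted p = 0.0303). These were the libraries of their groups that went most against the difference, and the other 10 runs with a library left out did not pass. The ratio met the count rule for testing mostly through AKC libraries, so these runs are not read as support. The log2 fold change between the groups was -1.97 (SE 1.94, edgeR adjusted p = 0.505) for ssa-miR-23a-3-5p, or -4.86 without AIC 1 and -0.56 without AKC 4. For ssa-miR-23a-3p it was 1.59 (SE 0.60, edgeR adjusted p = 0.0602). The latter was called with DESeq2 (1.42, adjusted p = 0.00688), with the 5 most abundant miRNAs left out of the totals (1.65, edgeR adjusted p = 0.0413), without AIC 1 (1.75, 0.0386) and without AIC 5 (1.70, 0.0466), and was at 0.72 with total counts (edgeR adjusted p = 0.417). An unnumbered ssa-miR-23a-5p is also in the table, with 366 counts over all libraries against 3179 for locus 3.

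Numbered arms of the cluster partners of miR-23a were detected more sparsely. ssa-miR-24a-4-5p had counts in AIC 2, AIC 4 and AIC 6 among the AIC libraries, from 0 to 1410 with a median of 0.5, and 0, 240, 0, 1, 402 and 305 in AKC 1 to AKC 6, while locus 3 had none. Counts of ssa-miR-24a-3p were confined to AIC 3 (244), AIC 4 (195), AKC 1 (289) and AKC 2 (127). In 7 libraries locus 4 of the 5p arm thus exceeded the 3p arm, in 5 of them with the 3p arm at 0, although AIC 6 and AKC 4 held only 1 count. Over all libraries there were 2582 counts of the 5p arm, 1410 of them in AIC 4, against 855 of the 3p arm. Among the miRNAs of the 9 arms with values per library, only miR-24a had more counts on its numbered arm than on the opposite arm over all libraries. The similarly named ssa-miR-24b-3p had a mean of 104 CPM in AIC and 53.2 CPM in AKC, against 10.9 and 2.92 for ssa-miR-24a-3p. Whether reads of miR-24a were counted there was not tested. For ssa-miR-27a-2-5p the only counts were 120 in AIC 4. The unnumbered ssa-miR-27a-5p had 1034 counts over all libraries, and no unnumbered 3p arm of miR-27a is in the table.

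**Figure D4:**
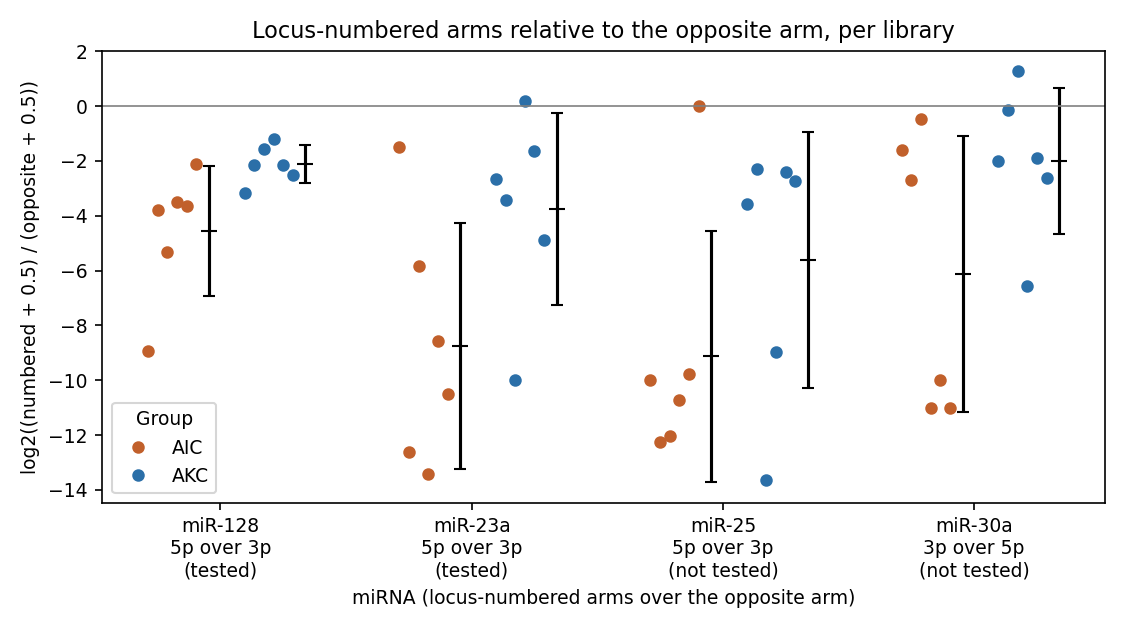
Log2 ratio of the summed numbered arms to the opposite arm, each with 0.5 counts added, in the 6 AIC and 6 AKC libraries, with the group mean and SD as bars. For miR-128, 5 AIC points lie below all AKC points, whereas the groups overlap for miR-23a and for miR-25 and miR-30a, which were not tested.

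miR-25, a seed relative of miR-32 that in mammals lies in an intron of the Mcm7 gene, carries a numbered 5p arm next to an unnumbered one. ssa-miR-25-3-5p had 0, 0, 0, 1, 0 and 504 counts in AIC 1 to AIC 6, and 2273, 1554, 0, 6, 1762 and 1229 in AKC 1 to AKC 6. In AIC it was thus a signal of AIC 6 alone, whereas 4 AKC libraries held more than 1000 counts. ssa-miR-25-3p ranged from 441 to 2520 counts in AIC with a median of 1304.5, and from 3291 to 27267 in AKC with a median of 7970. Scaled to library size the groups overlapped, with 209 to 593 CPM in AIC and 447 to 952 CPM in AKC. The numbered arm nearly equalled the 3p arm in AIC 6, with 504 against 505 counts, and reached at most 203 per 1000 in AKC. This ratio was not tested because fewer than 6 libraries held 10 counts of the numbered arm. The unnumbered ssa-miR-25-5p had 5620 counts over all libraries, spread over 10 of them, against 7329 for locus 3. Between the groups, ssa-miR-25-3p had a log2 fold change of -0.85 (SE 0.45, edgeR adjusted p = 0.170), which was called with DESeq2 (-1.05, adjusted p = 0.00398) and with total counts (-1.77, edgeR adjusted p = 0.0104). For ssa-miR-25-5p it was -0.96 (SE 1.59, edgeR adjusted p = 0.729).

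miR-30a, a member of a broadly expressed family, has its numbers on the 3p arm, and both of its numbered loci were detected. ssa-miR-30a-3-3p had 317 counts in AIC 3, 1 in AIC 4, 1283 in AKC 1, 419 in AKC 2, 2 in AKC 4 and 271 in AKC 6, and none elsewhere. ssa-miR-30a-4-3p had 103 counts in AIC 2 and 309 in AIC 3 with none in the other AIC libraries, and 132, 946, 605, 1, 266 and 325 in AKC 1 to AKC 6. Locus 4 was thus found in every AKC library, locus 3 in 4 of them. ssa-miR-30a-5p ranged from 1 to 3075 counts in AIC with a median of 775.5, and from 251 to 5720 in AKC with a median of 1259. The 3p arms together exceeded the 5p arm in AKC 3 alone, with 605 against 251 counts, and this ratio was not tested because AIC 1 held a single count over both arms. The log2 fold change of ssa-miR-30a-4-3p was -0.96 (SE 1.83, edgeR adjusted p = 0.746), or -2.66 without AIC 3, -0.49 without AIC 6 and -0.53 without AKC 2. That of ssa-miR-30a-5p was 1.13 (SE 0.99, edgeR adjusted p = 0.469), or 0.35 with total counts.

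ssa-miR-200a-2-5p was the only numbered arm seen in AIC alone that had at least 10 counts in 3 or more libraries. miR-200a belongs to a family typical of epithelial cells, where it represses the ZEB transcription factors in mammals. Its locus 2 gave 0, 220, 38, 218, 0 and 213 counts in AIC 1 to AIC 6 and none in any AKC library, while loci 1 and 3 had no count. In AIC its level ran from 0 to 97.0 CPM with a median of 18.1, the highest in AIC 6, and the absence of counts in AKC allows a mean of up to 0.232 CPM, which corresponds to 3 counts per library. The arm was not kept by the low-count filter, and its counts lie in AIC alone. Its direction in any test of the groups was thus fixed, and the call without a filter given below is not read as support.

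The shared ssa-miR-200a-3p ranged from 7092 to 34331 counts in AIC, and from 0 to 447 in AKC with a median of 8. It was higher in AIC, with a log2 fold change of 9.13 (SE 1.50, edgeR adjusted p = 0.000296). In AIC the 5p arm of locus 2 amounted to 7.08 counts per 1000 of the 3p arm. At that ratio, the 672 counts of the 3p arm in all AKC libraries leave little depth for detecting the 5p arm, so its absence there could not be read as a difference between the arms. ssa-miR-200a-3p and the numbered 5p arms of miR-200a are themselves in the list of intestinal epithelial markers given above.

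The other 11 detected arms were seen in 1 or 2 libraries, with a highest count of 1 to 511. In AIC, ssa-miR-100a-2-3p had 511 counts in AIC 6, ssa-miR-375-3-5p had 157 in AIC 3, ssa-miR-133a-3-5p had 116 in AIC 4, and ssa-miR-125b-1-3p had 60 in AIC 4 and 41 in AIC 5. In AKC, ssa-miR-29b-2-5p had 501 counts in AKC 1, ssa-miR-20a-3-3p had 326 in AKC 1, ssa-miR-20a-2-3p had 281 in AKC 6 and 1 in AKC 4, ssa-miR-125b-2-3p had 221 in AKC 6, ssa-miR-125b-3-3p had 150 in AKC 1, and ssa-miR-130d-3-5p had 1 in AKC 3. None of these 11 passed the low-count filter, and counts in so few libraries allow no comparison of the groups.

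Several of these arms had an abundant partner. ssa-miR-375-3p, the miRNA typical of enteroendocrine and pancreatic islet cells, had 8240438 counts over all libraries, and its numbered 5p arms amounted to 0.0191 counts per 1000 of it. For miR-100a the ratio over all libraries was 2.66 per 1000, with all counts of the numbered arm in AIC 6. For miR-125b, which in mammals is known from blood cell development, it was 3.20. For miR-125b and for miR-20a, a miRNA of a cluster known in mammals for cell proliferation, 3 and 2 loci were detected, but each library that held counts held those of a single locus. The numbered arms of miR-20a exceeded ssa-miR-20a-5p in 3 libraries, with 326 against 177 counts in AKC 1, 281 against 0 in AKC 6 and 1 against 0 in AKC 4, whereas AKC 2 held 0 against 572. The opposite arm of the muscle miRNA miR-133a was also detected in 4 libraries, with 603 counts against 116 of the numbered arm. ssa-miR-29b-2-5p, from a family that targets collagen mRNAs in mammals, was detected although ssa-miR-29b-3p had no count in any library.

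An abundant opposite arm did not always come with a numbered arm. An unnumbered opposite arm is in the table for 62 of the 70 numbered arms. Where it had counts in all 12 libraries, 12 of 19 numbered arms were detected, where it had counts in 1 to 11 libraries, 6 of 27, and where it had none, 1 of 16. For comparison, all 4 loci of miR-196a and loci 2 and 3 of miR-10b, miRNAs located in the Hox gene clusters, had no count, although ssa-miR-196a-5p had 24241 counts and ssa-miR-10b-5p 63496 over all libraries. The same held for locus 2 of miR-139 and of miR-99, whose 5p arms had 13892 and 6665 counts. For miR-365 and miR-130b, which have no unnumbered opposite arm here, the counts of the 5p arm lay with its unnumbered name. ssa-miR-365-5p had 3876 counts and ssa-miR-130b-5p 1289, while ssa-miR-365-2-5p and ssa-miR-130b-2-5p had none.

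The remaining numbered arms without any count included several from miRNAs best known from other tissues, named in parentheses. They comprised locus 2 of miR-122 (liver), loci 3 and 4 of miR-1 (muscle), loci 2, 3, 4, 5 and 8 of miR-9a and locus 2 of miR-153a (neurons), locus 2 of miR-183 (sensory organs), locus 2 of miR-203a and of miR-205a and loci 1 to 4 of miR-205b (skin epithelium). Some of their opposite arms were detected: ssa-miR-205a-5p had 1306 counts in 5 libraries, ssa-miR-205b-5p 815 in 3 AIC libraries, ssa-miR-183-5p 523 in 3 AKC libraries and ssa-miR-203a-3p 487 in 2 AKC libraries. The arms without a count also comprised loci 3 and 4 of miR-132, miR-204, miR-338a and miR-19c, loci 2 and 3 of miR-135b, loci 1 and 2 of miR-130d, loci 1, 3 and 4 of miR-29b, locus 3 of miR-19a, and locus 2 of miR-27c, miR-375 and miR-8160. Together with those named above, these make up the 50 arms at 0.

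Among the unnumbered opposite arms, 23 of 30 were detected and 12 were tested. Of these, 5 were called, all higher in AIC, where 18.4% of the tested miRNAs were called higher. Besides ssa-miR-200a-3p they were ssa-miR-375-3p (log2 fold change 11.68, SE 0.42), ssa-miR-196a-5p (9.01, SE 1.86), ssa-miR-10b-5p (3.55, SE 0.80) and ssa-miR-100a-5p (2.11, SE 0.54), with edgeR adjusted p-values of 2.29e-12, 0.00187, 0.00279 and 0.00737. Single AKC libraries moved some of these values: ssa-miR-196a-5p, with 190 of its 196 AKC counts in AKC 2, was at 13.86 without that library, and ssa-miR-200a-3p was at 11.15 without AKC 3. With total counts, ssa-miR-100a-5p was no longer called (1.10, adjusted p = 0.124). No arm ratio of these 5 miRNAs was compared between the groups, because none had 10 counts of its numbered arms in 6 libraries. ssa-miR-125b-5p had a log2 fold change of 0.0065 (SE 0.36, edgeR adjusted p = 0.986).

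**Figure D5:**
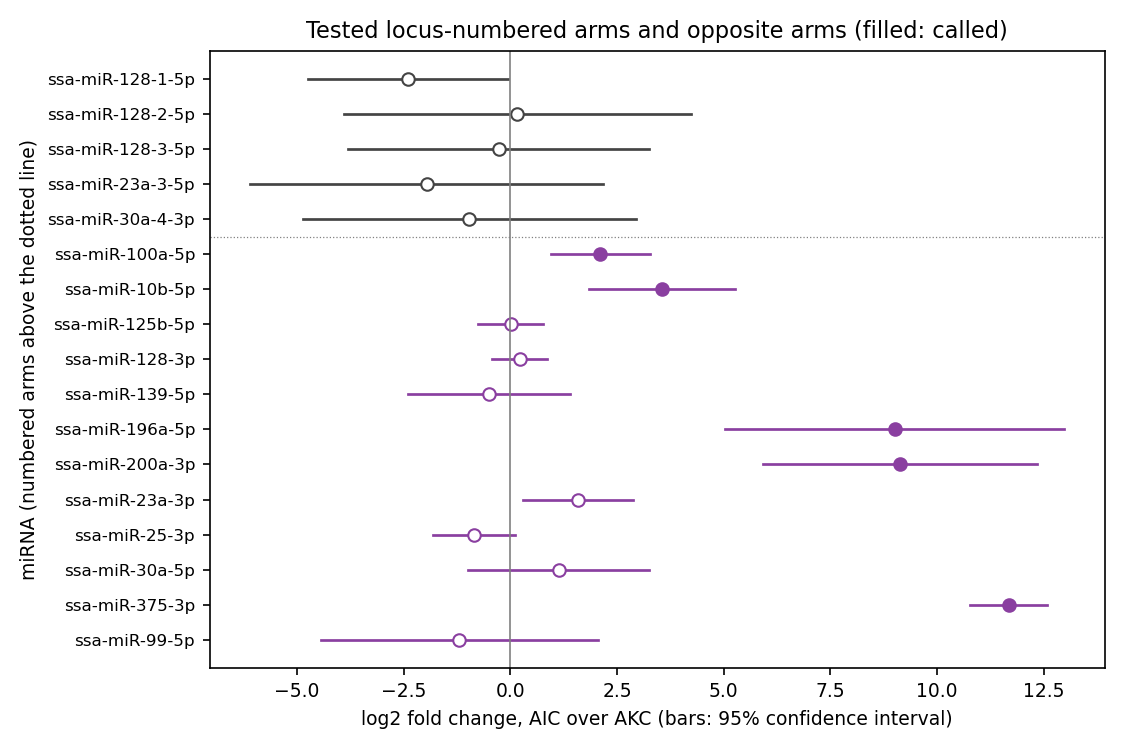
Log2 fold change of AIC over AKC with its 95% interval from edgeR for the 5 tested numbered arms (above the dotted line) and the 12 tested opposite arms (below it), filled where called. None of the numbered arms is filled, and the 5 filled opposite arms all lie to the right of 0.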

How the data were processed

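Small RNA libraries were prepared from 50 ng of RNA and sequenced for 6 AIC and 6 AKC samples. The submitters' processing notes name bcl2fastq 2.20.0.422, Cutadapt 1.12 and FastQC 0.11.5, and the paper gives another bcl2fastq version for its mRNA data. According to the methods and these notes, the authors kept reads of at least 18 bases and mapped them to the salmon genome ICSASG_v2 with miRDeep2. The reads were then counted against salmon miRNAs of miRBase. The deposited values were estimated counts per mature miRNA, not scaled to library size. Fractions occurred in 12 miRNAs, among them 5 opposite arms and 0 numbered arms. They were rounded to whole numbers before any fit, and their origin was not tested. All value columns carried a sample name (0 without). The authors' own comparison used DESeq2 1.20.0, and its values were not used. The paper lists ssa-miR-128-1-5p among the miRNAs it found lower in AIC.

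The tools here were R 4.3.3, edgeR 4.0.16, limma 3.58.1, DESeq2 1.42.0, Python 3.11.15, NumPy 2.4.6, pandas 2.3.3, SciPy 1.17.1 and Matplotlib 3.10.9. The main test was edgeR's quasi-likelihood test after filterByExpr and TMM scaling, over all miRNAs with Benjamini-Hochberg adjustment. CPM are counts per 1000000 of the TMM-scaled library size. An arm ratio was log2 of the summed numbered arms over the opposite arm, each with 0.5 added, and was tested where the arms together held 10 counts in every library and the numbered arms 10 counts in 6 libraries. Locus shares used libraries with at least 10 counts of the numbered arms, tested with at least 4 libraries per group. Both were compared with exact two-sided permutation tests, which have 924 arrangements for 6 against 6. Intervals are at 95%.

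Every numbered arm was named, with values per library, or the lowest, median and highest of a group, for those with at least 10 counts in 3 libraries. The numbered arms and the marker lists were chosen with earlier results of these data known. The alternatives were other scalings, no filter, a filter of 10 counts in 6 libraries, DESeq2, loci summed before the fit, a replicate block, a pseudocount of 1, shares in place of ratios, a minimum of 50 counts, the most abundant locus alone, and each library left out in turn. Adding the unnumbered row of the same arm was chosen after seeing the data. The steps were tested on simulated data.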

Additional observations from a re-analysis of the deposited data

Results flagged for a closer look

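In 9 of 27 groups of values compared, 1 library stood apart from the rest of its group by Dixon's criterion. For normally distributed values this criterion sets apart about 1 group in 20 by chance. Counts with many zeros and shares are not so distributed, so the 9 cannot be set against that rate. In AIC these were ssa-miR-128-3-5p in AIC 6 (312 CPM), ssa-miR-25-3-5p in AIC 6 (230 CPM), ssa-miR-23a-3-5p in AIC 1 (64.6 CPM), ssa-miR-24a-4-5p in AIC 4 (195 CPM) and ssa-miR-30a-3-3p in AIC 3 (50.005 CPM), each above its group. AIC 6 had the fewest total counts of all 12 libraries. In AKC they were ssa-miR-128-2-5p (115 CPM) and ssa-miR-23a-3-5p (193 CPM), both in AKC 4, the AKC library with the fewest total counts. Among the locus shares, ssa-miR-128-2-5p held 97.4% in AIC 5 (95% Wilson interval 94.2% to 98.9%) and ssa-miR-128-3-5p held 78.2% in AIC 6 (75.4% to 80.8%).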

How the results depend on the processing

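Of the 76 miRNAs tested, 21 were called with edgeR, 33 with DESeq2 and 41 of 180 without a filter on low counts. The call count lay between 20 and 29 under the other scalings, the summed loci and the block, and from 17 to 23 with single libraries left out. With total counts the split was 9 higher and 20 lower in AIC, against 14 and 7 with TMM, and the median log2 fold change moved from 0.11 to -0.65. Calls among numbered arms numbered 0 with edgeR and 1 with total counts or DESeq2 (ssa-miR-128-1-5p). With single libraries left out they numbered 0 to 1 (ssa-miR-128-3-5p without AIC 6, a run not read as support). Without a filter there were 2, ssa-miR-200a-2-5p, and ssa-miR-100a-2-3p with its 511 counts in AIC 6 alone. Both of these arms have counts in AIC alone, so neither call is read as a group difference. ssa-miR-128-1-5p stayed below 0 in every alternative run. A filter of 10 counts in 6 libraries kept the same 76 miRNAs and so changed nothing.

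Whether same-numbered libraries come from the same fish is not known. The correlations of same-numbered deviations lay from -0.12 to 0.073, and 0 libraries correlated best with their own number. With counts this sparse, such correlations cannot decide the pairing. With the replicate block 22 miRNAs were called, the miR-128 arm difference of -2.44 had an exact sign-flip adjusted p of 0.125, and the log2 fold change was -4.20 for ssa-miR-128-1-5p, -2.49 for ssa-miR-128-2-5p, -6.51 for ssa-miR-128-3-5p, -5.54 for ssa-miR-23a-3-5p, -4.37 for ssa-miR-30a-4-3p and -0.14 for ssa-miR-125b-5p, with no numbered arm called. ssa-miR-196a-5p was at 13.33 and ssa-miR-200a-3p at 12.12.

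Signs turned elsewhere for values with adjusted p-values above the threshold. ssa-miR-125b-5p was at -0.0942 with DESeq2's size factors, -0.0945 with DESeq2, -0.78 with total counts, -0.0167 with summed loci, and from -0.18 to 0.11 with single libraries left out. With total counts ssa-miR-128-2-5p was at -0.27 and ssa-miR-128-3p at -0.69, and the former lay from -0.46 to 1.44 with single libraries left out.

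With single libraries left out, the miR-128 arm difference lay from -2.92 to -1.56 and that of miR-23a from -6.45 to -4.07. The share difference of locus 3 of miR-128 lay from -19.2 to 0.37 points, being 0.37, 0.11 and 0.25 without AIC 2, AIC 3 and AIC 5. Other settings moved no sign of the arm differences. AIC 1 was already left out of the shares, so that setting gave no value. The cause was not tested for any of these. At most 10 of the 70 numbered arms had a count in any library.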
